A study of Mus musculus with 2 samples.

Results

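MHC class I molecules display fragments of a cell's own proteins to CD8+ T cells. A heavy chain pairs with a light chain, proteasomes cut proteins into peptides, a transporter moves the peptides into the endoplasmic reticulum, and a loading complex places them on the new molecule. Interferons raise most genes of the pathway, and dendritic cells (DCs) are known for using it to present proteins that they have taken up from other cells. The 9 genes described here were chosen by name, for these roles. They are H2-K1 and H2-D1, the classical heavy chains of C57BL/6 mice; B2m, the light chain beta-2-microglobulin; Psmb8 and Psmb9, catalytic subunits of the immunoproteasome; Tap1 and Tap2, whose products pair as the peptide transporter; Tapbp, which encodes tapasin, the bridge between transporter and heavy chain; and Nlrc5, a transactivator of class I genes. All 9 of 9 were detected, among the 32285 genes of the count tables, of which 17106 were detected in the cells analysed.

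Single-cell RNA-seq had been run on CD11b+ and CD11c+ myeloid cells from colorectal polyps of C57BL6/J mice aged 26 weeks. Mice of both genotypes had been given azoxymethane (AOM), a colon carcinogen, then 3 rounds of the colitis agent dextran sodium sulfate (DSS) at 1%, and polyps were taken 16 weeks after AOM. The groups were WT mice and Clec7a-/- mice, which lack the beta-glucan receptor Dectin-1 in all cells and had been backcrossed to C57BL/6J. Each group was 1 library made from the pooled cells of several mice, so there is no replicate and no test, and no p-value is given. Every interval below is a 95% interval, exact except with class shares held fixed, for the counting error of unique molecular identifiers (UMIs, 1 per captured transcript copy). The intervals leave out the differences between mice and between library preparations, which cannot be told apart from genotype here.

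The filtered WT library held 2696 cells and 12283285 UMIs (median per cell 3412.5) and the Clec7a-/- library 1999 cells and 7559096 UMIs (median per cell 2671). Before filtering, 17 barcodes occurred in both libraries. The 9 genes held 110231 and 68851 of these UMIs. Of the WT count, B2m held 49619, H2-D1 33703 and H2-K1 21470. Levels given below for the 9 genes together therefore mainly describe these chains. Clec7a was not analysed here, so the genotype was not checked from its own transcript. Cells were grouped into 15 clusters, drawn without the 9 genes or the related genes below, and named from marker genes. Neutrophil-like, monocyte-like, macrophage-like, DC-like and T-cell-like classes were obtained. Cluster 3 (shallow cells, median 1166 UMIs in WT and 919 in Clec7a-/-) and cluster 5 (neutrophil and monocyte markers together) were left unnamed, and 57 WT and 56 Clec7a-/- cells of 4 small clusters (plasma, proliferating, epithelial and mast cell markers) are not described. Itgam, which encodes CD11b, was measured at 865 CPM (UMIs of a gene per 1000000 UMIs of the group) in WT neutrophil-like cells. It was at 346 CPM in WT macrophage-like cells, but at 42.1 CPM in WT DC-like cells, where Itgax (CD11c) was at 308 CPM. Itgax did not set DC-like cells apart. It was higher in WT macrophage-like (768 CPM), neutrophil-like (664 CPM) and monocyte-like cells (505 CPM), in cluster 5 (531 CPM) and in cluster 3 (1007 CPM). T-cell-like cells, which are not myeloid cells, had 97.1 CPM of Itgam and 148 CPM of Itgax in WT and carried 5129 CPM of neutrophil marker RNA in WT and 1614 CPM in Clec7a-/-.

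The class I genes are spread over 3 chromosomes. In GENCODE M21 (GRCm38), 7 of the 9 lie on chromosome 17, where Psmb9 (minus strand), Tap1, Psmb8 and Tap2 (plus strand) are neighbours between chr17:34181987-34187764 and chr17:34203527-34216321. H2-K1 lies at chr17:33996017-34000347 (minus strand), Tapbp at chr17:33915899-33929292 and H2-D1 at chr17:35262730-35267499 (both plus strand). B2m lies at chr2:122147686-122153083 and Nlrc5 at chr8:94434356-94527272.

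Upstream sequences are shown for the heavy and light chains, because these genes differed unequally between libraries in the results below. The stretch that Tap1 and Psmb9 share is shown because both genes were highest in DC-like cells. All are RefSeq sequences (GRCm38.p6), each ending at the base before the RefSeq start. The stretches of H2-D1 and of Tap1 and Psmb9 lie inside the GENCODE spans of H2-D1 and Psmb9. RefSeq sequence was matched for 7 of the 9 genes. Capitals mark GGGATTCCC (a classical NF-kappa-B site), TTTCACTTC (from the class I interferon response element), GAAANNGAA (an interferon response core), TGACG and CCAAT, each searched on both strands.
H2-K1 (chr17:34000348-34000467, minus strand): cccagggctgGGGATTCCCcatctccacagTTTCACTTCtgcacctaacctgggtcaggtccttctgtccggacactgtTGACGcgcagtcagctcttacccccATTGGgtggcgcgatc
H2-D1 (chr17:35262914-35263093, plus strand): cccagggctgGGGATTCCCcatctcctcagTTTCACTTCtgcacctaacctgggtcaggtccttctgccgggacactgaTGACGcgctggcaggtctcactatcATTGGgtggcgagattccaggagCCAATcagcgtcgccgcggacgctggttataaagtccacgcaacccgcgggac
B2m (chr2:122147527-122147686, plus strand): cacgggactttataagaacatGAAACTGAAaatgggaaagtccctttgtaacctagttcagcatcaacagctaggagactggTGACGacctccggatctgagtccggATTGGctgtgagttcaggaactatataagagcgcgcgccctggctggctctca
Tap1 and Psmb9 (chr17:34187331-34187555, plus strand of Tap1): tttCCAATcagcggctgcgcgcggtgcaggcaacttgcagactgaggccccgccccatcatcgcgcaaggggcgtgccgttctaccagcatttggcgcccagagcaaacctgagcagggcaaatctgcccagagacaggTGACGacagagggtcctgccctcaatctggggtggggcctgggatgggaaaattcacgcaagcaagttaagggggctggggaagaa

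In the 250 bases before the start, H2-K1 and H2-D1 aligned over 177 columns with 161 identical bases (91.0%). Among the 7 genes, GGGATTCCC and TTTCACTTC were in those 2 alone, against 0.311% and 0.429% of 27025 promoters of the same length. GAAANNGAA was in B2m alone (7.16% of promoters), TGACG in 5 genes (17.9%) and CCAAT in 6 (34.5%). The RefSeq starts of Tap1 and Psmb9 lie on opposite strands with these 225 bases between them. A match of letters is a description and not a measured site.

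Across cell classes most of the 9 genes followed 1 of 2 patterns. The heavy and light chains were measured in every class and were highest in T-cell-like cells. From highest to lowest class they ranged at most 3.20-fold over both libraries. The immunoproteasome and transporter genes were instead concentrated in DC-like cells. Levels are CPM of the summed UMIs of a class. They are compared between classes or libraries and not between genes, since counts were not scaled per length.

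**Figure D1:**
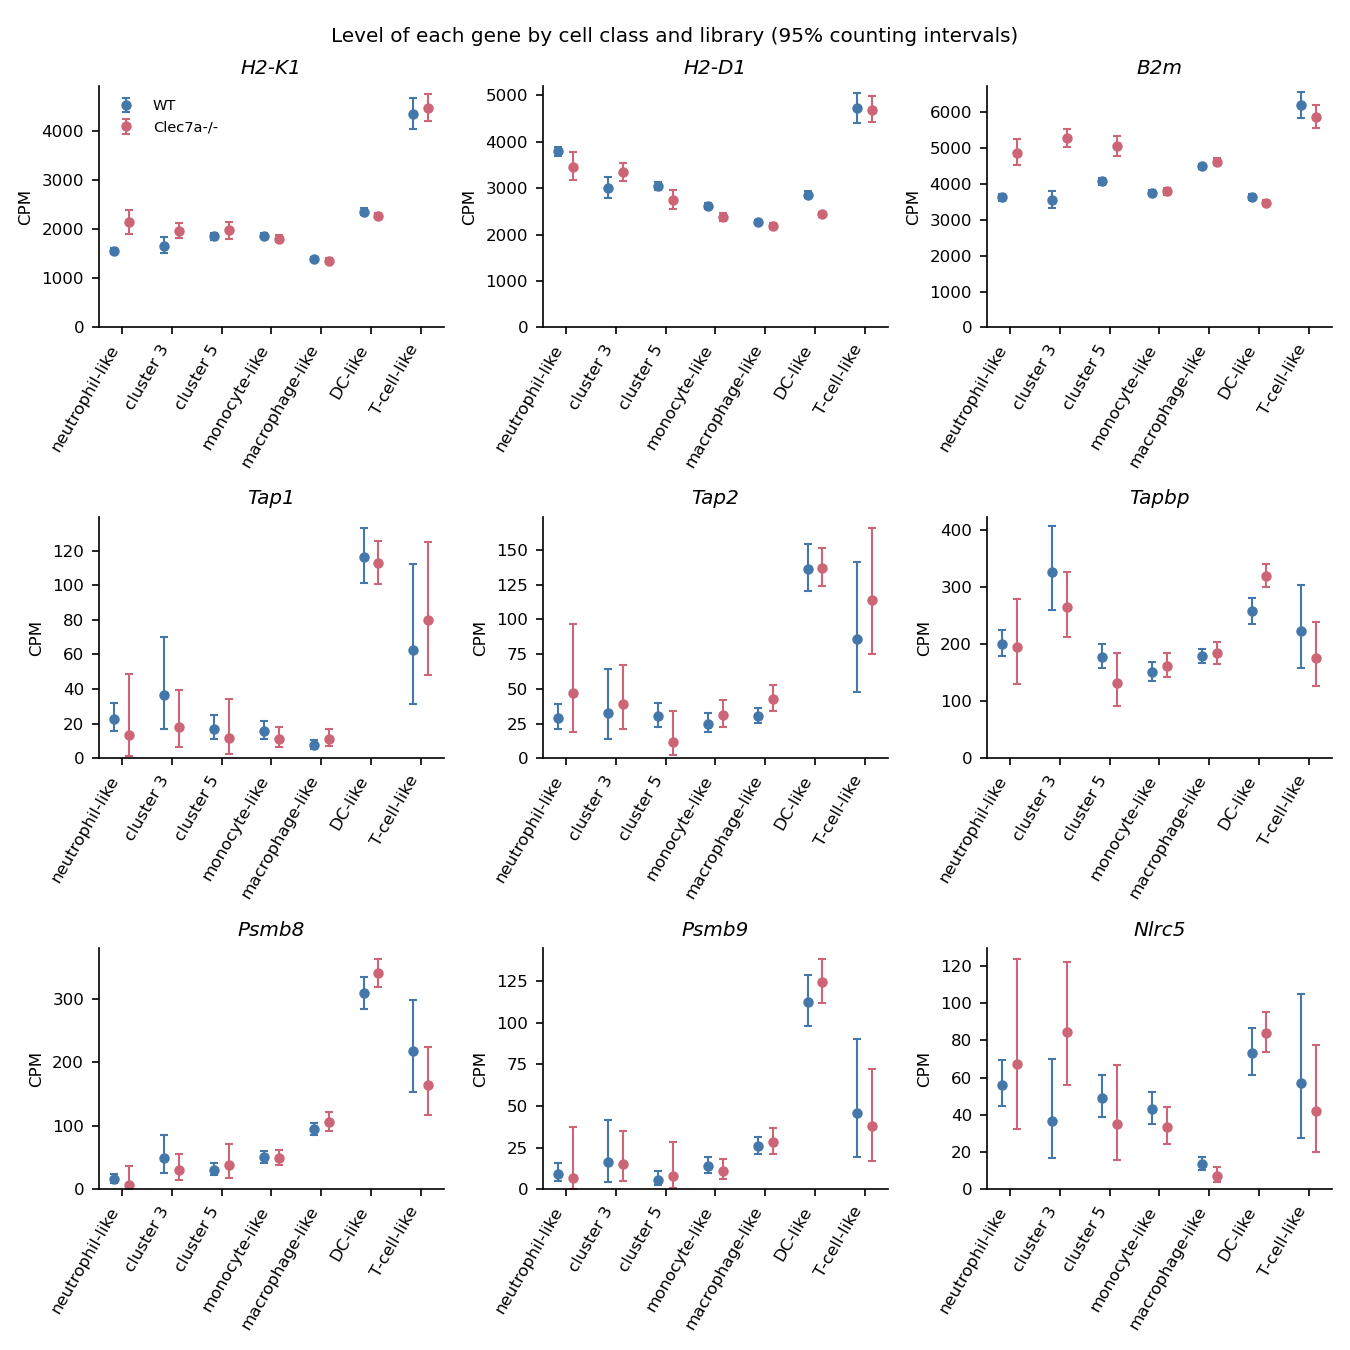
Level of each gene (CPM, linear axis from 0) in the 7 classes or clusters described, for the WT library (blue) and the Clec7a-/- library (red), with exact Poisson 95% intervals. The chains are highest in T-cell-like cells, by 1.70-fold (B2m) to 3.20-fold (H2-K1) over the lowest class in both libraries together. Tap1, Tap2, Psmb8 and Psmb9 stand highest in DC-like cells in both libraries, where Psmb8 was 308 and 339 CPM.

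H2-K1 was at 4358 CPM in WT and 4471 CPM in Clec7a-/- T-cell-like cells, and at 1395 and 1357 CPM in macrophage-like cells, the lowest class in both libraries. H2-D1 had the same highest and lowest classes, at 4723 and 4694 CPM against 2274 and 2179 CPM. Over both libraries the highest class exceeded the lowest by 3.20-fold for H2-K1, and by less for H2-D1. Between these ends the order of the heavy chains differed. DC-like cells were second for H2-K1 (2310 CPM over both libraries) and neutrophil-like cells for H2-D1 (3768 CPM). For H2-K1, cluster 5, monocyte-like cells and cluster 3 had overlapping intervals.

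B2m varied least, from 6009 CPM in T-cell-like to 3541 CPM in DC-like cells over both libraries, a 1.70-fold range. Macrophage-like cells, lowest for both heavy chains, were not lowest for B2m. They were above cluster 3 in WT, at 4488 CPM (4425 to 4552) beside 3558 CPM, and below it in Clec7a-/-, at 4621 CPM (4527 to 4716) beside 5269 CPM. The light chain therefore did not follow the order of the heavy chains. After each cell was thinned to 1000 UMIs, B2m was found in 95.5% (95% interval 94.8 to 96.1) of 4202 cells and H2-K1 in 79.9% (78.7 to 81.1). Without thinning these shares were 98.2% and 93.2% of all 4695 cells. A cell held a median of 9 UMIs of the 9 genes together after thinning, and 16 of the 4202 cells held none. In T-cell-like cells the median was 15. No cell class was known to lack class I transcripts, so the part of free RNA in these shares was not tested.

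The immunoproteasome replaces the constitutive catalytic subunits by Psmb8 (for Psmb5), Psmb9 (for Psmb6) and Psmb10 (for Psmb7). Psmb8 was at 308 CPM (284 to 335) in WT and 339 CPM (318 to 361) in Clec7a-/- DC-like cells. T-cell-like cells followed at 217 and 164 CPM, macrophage-like cells at 95.2 and 106 CPM, monocyte-like cells at 50.2 and 49.2 CPM, and neutrophil-like cells were lowest at 16.7 CPM from 25 UMIs and 6.71 CPM from 1 UMI. DC-like cells exceeded neutrophil-like cells by 20.7-fold over both libraries, the widest range of the 9 genes. Psmb9 was at 113 and 124 CPM in DC-like cells and at 26.0 and 28.3 CPM in macrophage-like cells. Over both libraries it was lowest in cluster 5, at 5.98 CPM (2.98 to 10.7) from 11 UMIs, which is 20.0-fold under DC-like cells. This interval overlapped with that of neutrophil-like cells (9.12 CPM), which were lowest in Clec7a-/- at 6.71 CPM from 1 UMI. After thinning, 238 of 884 DC-like cells (26.9%) and 8 of 564 neutrophil-like cells (1.42%) had a UMI of Psmb8, and unthinned shares were 62.2% and 4.23%.

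**Figure D2:**
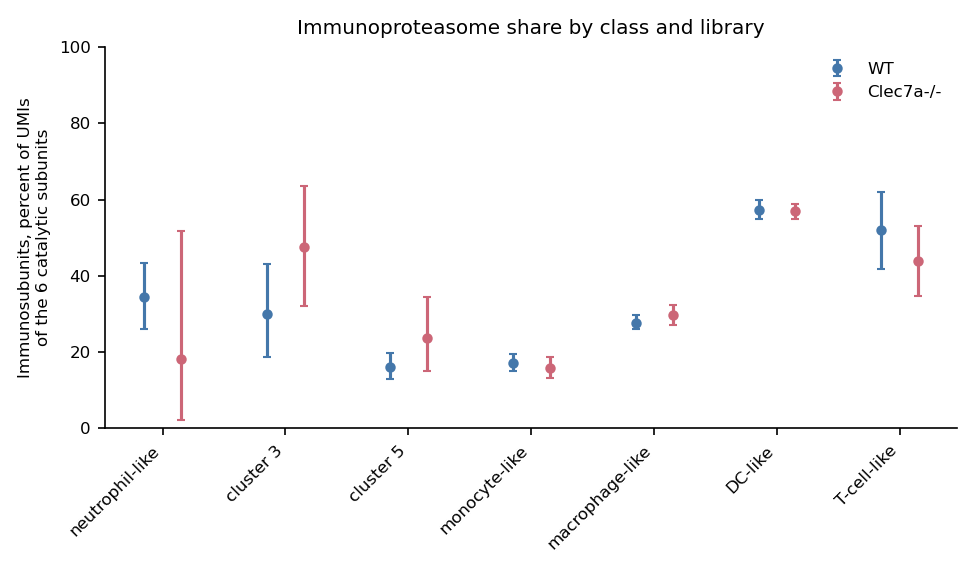
UMIs of Psmb8, Psmb9 and Psmb10 as a percentage of the UMIs of these and of Psmb5, Psmb6 and Psmb7, by class and library, with exact binomial 95% intervals. DC-like cells stand at 57.3% in WT and 56.9% in Clec7a-/-, above monocyte-like cells at 17.3% and 15.8%; the wide intervals of neutrophil-like cells and cluster 3 come from few UMIs.

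Set against their constitutive partners, the immunosubunits made up 57.3% (54.8 to 59.8) of the 6 subunits' UMIs in WT and 56.9% (54.9 to 58.8) in Clec7a-/- DC-like cells. The libraries did not differ there beyond counting error. The shares were 27.8% and 29.7% in macrophage-like and 17.3% and 15.8% in monocyte-like cells, each with overlapping intervals between libraries. T-cell-like cells were at 52.0% (41.8 to 62.0) in WT, overlapping with DC-like cells, and at 43.8% (34.8 to 53.1) in Clec7a-/-. WT neutrophil-like cells were at 34.4% (26.1 to 43.4), from 43 immunosubunit UMIs. Of the DC-like clusters described below, cluster 8 was at 44.1% in WT and 41.1% in Clec7a-/-. Clusters 7 and 9 were at 62.7% and 59.1% in WT. Over all cells, however, the share was 33.4% (32.2 to 34.6) in WT and 42.7% (41.3 to 44.1) in Clec7a-/-. In DC-like cells Psmb8 took 80.4% and 81.1% of the UMIs of its pair with Psmb5, Psmb9 took 50.6% and 47.5% of its pair with Psmb6, and Psmb10 only 21.4% and 20.4% of its pair with Psmb7. Differences in length or capture between partners can move such a share, so only its order across classes and libraries is read.

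The transporter genes were also highest in DC-like cells and next in T-cell-like cells. Below these the order differed. Over both libraries, macrophage-like cells came after T-cell-like cells for Psmb8 but were lowest for Tap1. Tap1 was at 116 CPM (101 to 133) in WT and 113 CPM (101 to 126) in Clec7a-/- DC-like cells, then at 62.8 and 80.1 CPM in T-cell-like cells. No other class exceeded 36.8 CPM in either library, and macrophage-like cells were at 7.74 and 11.4 CPM. Over both libraries the range from DC-like to macrophage-like cells was 12.8-fold. Tap2 was at 137 CPM in DC-like cells of both libraries, and its interval overlapped with that of T-cell-like cells (102 CPM over both libraries). The remaining classes lay between 27.4 and 36.5 CPM of Tap2 over both libraries, each overlapping its neighbour in the order.

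Tapbp and Nlrc5 were broader. Tapbp was at 258 CPM in WT and 320 CPM in Clec7a-/- DC-like cells and at 328 and 265 CPM in cluster 3, and these did not differ over both libraries (296 and 292 CPM). Monocyte-like cells were lowest in WT at 152 CPM and cluster 5 in Clec7a-/- at 132 CPM. Nlrc5 was at 73.1 and 83.9 CPM in DC-like cells and at 13.6 and 7.45 CPM in macrophage-like cells, a 6.85-fold range over both libraries. Cluster 3 and neutrophil-like, T-cell-like and cluster 5 cells formed an overlapping series from 64.2 to 47.3 CPM of Nlrc5. Macrophage-like cells thus had more Psmb8 than neutrophil-like cells but less Nlrc5.

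The genes that followed each other can be read from the 14 profiles of 7 classes in 2 libraries, with Pearson correlations of log2(CPM + 1). Each class enters once per library, and profiles of a library share its depth. The 14 profiles are therefore not independent, and the values are descriptions. The closest pair was Psmb8 and Psmb9 (r = 0.91), followed by Tap1 and Tap2 (r = 0.85) and by Tap2 and Psmb9 (r = 0.83). H2-K1 and H2-D1 reached 0.76, but B2m reached only 0.59 with H2-K1 and 0.56 with H2-D1. Nlrc5 had its highest value with Tap1 (0.55), then 0.51 with H2-D1, 0.47 with H2-K1, 0.42 with Tapbp and 0.36 with Tap2. Its values were 0.11 with Psmb9, -0.07 with Psmb8 and -0.08 with B2m. Of 4647 genes with at least 500 UMIs, the most similar in profile to Psmb8 were Gpr183 (0.98), Atl3 (0.97) and Coa5 (0.96), and those to Tap1 were Orai1 (0.97), Itgae (0.96) and Itga4 (0.93). For Psmb9 they were Tbl1x, Dpp4 and Fnbp1 (0.93 to 0.95) and for Nlrc5 Jak2, Sipa1l1 and Gpc1 (0.90 to 0.92). Tap2 was nearest to Mki67, Smarca2 and Adam19 (0.92 to 0.96), and Tapbp to Tmem131l, Tra2a and R3hdm2 (0.83 to 0.90). For H2-K1 they were Mbd2, Hmgb2 and Pde4d (0.92 to 0.93), for H2-D1 Stk10, Vps37b and Dgat1 (0.92 to 0.94), and for B2m Fgl2, Maf and Tm9sf3 (0.83 to 0.86).

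DC-like cells were made of 3 clusters, which differed in the levels of these genes. Cluster 9 carried type 1 DC markers (Xcr1, Clec9a, Itgae, Wdfy4), the DCs known for presenting captured antigen to CD8+ T cells. Cluster 7 carried mature DC markers (Fscn1, Ccl22, Cacnb3, Tbc1d4). Cluster 8, led by Il22ra2, held only 1 marker from each of 3 DC lists among its top genes. These were Ccr7 (mature), Zbtb46 (type 2) and Tcf4 (plasmacytoid). It also held 1 marker of the mast cell or basophil list (Kit), so its place among DC-like cells is less certain.

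**Figure D3:**
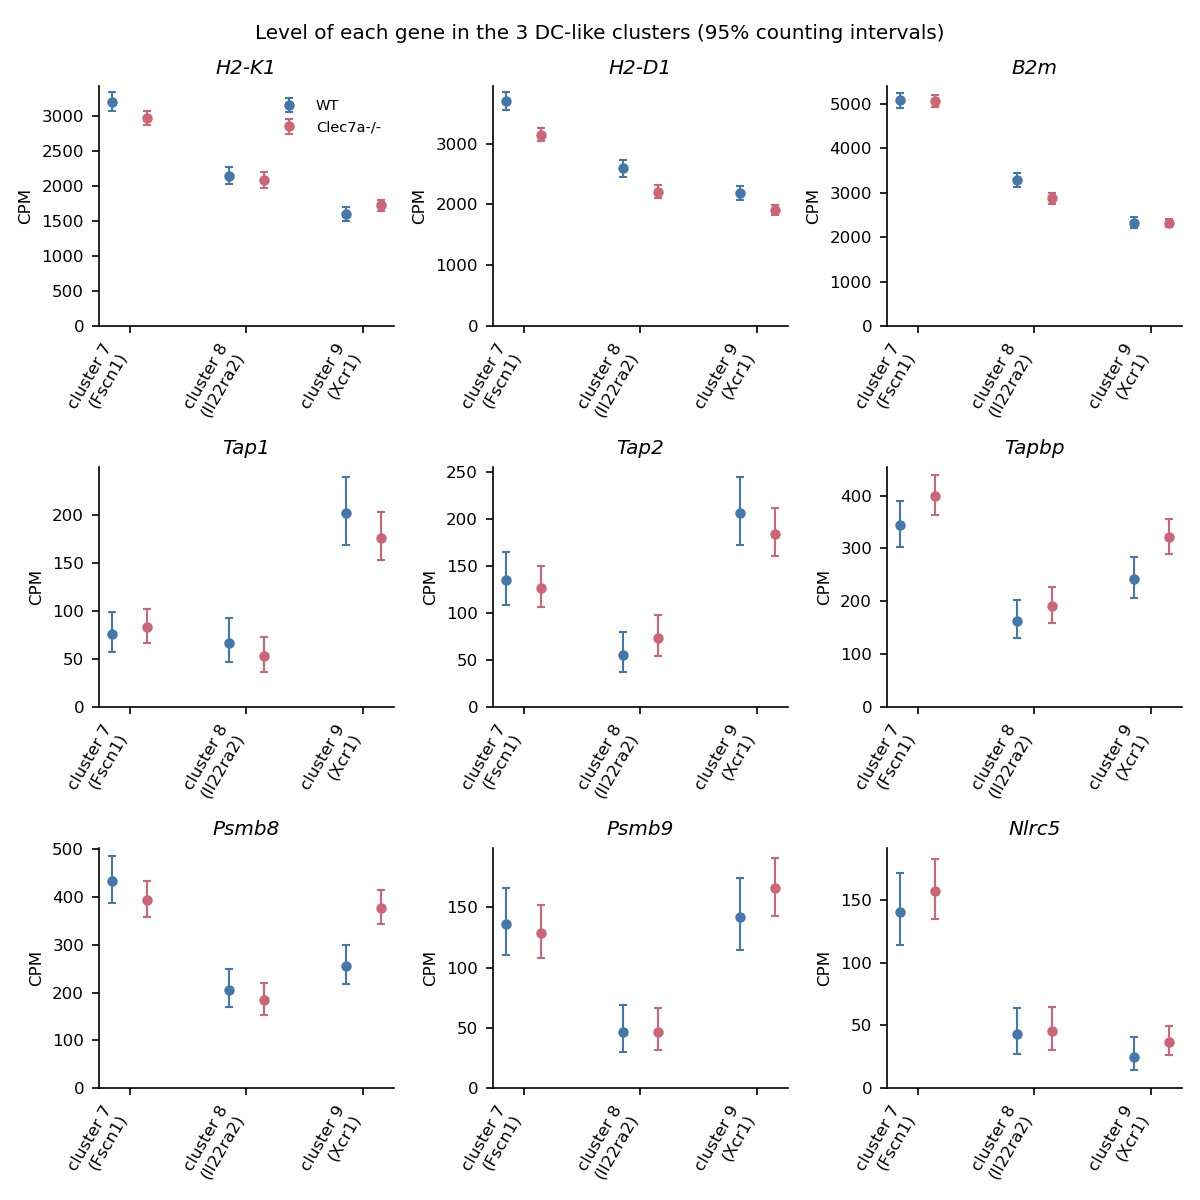
Level of each gene (CPM, linear axis from 0) in clusters 7, 8 and 9 for the WT (blue) and Clec7a-/- (red) libraries, with exact Poisson 95% intervals; a leading marker of each cluster is in brackets. Tap1 and Tap2 are highest in cluster 9, and the chains and Nlrc5 in cluster 7.

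Cluster 9 had the highest Tap1, at 202 CPM (169 to 240) in WT and 176 CPM (153 to 203) in Clec7a-/-, and the highest Tap2, at 207 and 184 CPM. It had the lowest B2m of the 3, at 2330 and 2322 CPM, the lowest H2-K1, at 1597 and 1727 CPM, and Nlrc5 at only 25.03 and 36.4 CPM. Cluster 9 thus had the highest transporter levels and the lowest B2m and H2-K1 of the 3 clusters in both libraries. Cluster 7 had Nlrc5 at 141 CPM (114 to 171) and 157 CPM (135 to 183), H2-K1 at 3206 and 2978 CPM, and B2m at 5083 and 5069 CPM. The 9 genes together came to 13254 and 12480 CPM in cluster 7, 8618 and 7765 CPM in cluster 8, and 7186 and 7214 CPM in cluster 9. Psmb8 was at 434 and 394 CPM in cluster 7 and at 206 and 185 CPM in cluster 8. In cluster 9 it was at 257 CPM (219 to 299) in WT and 378 CPM (343 to 415) in Clec7a-/-, a log2 ratio of 0.56 (0.29 to 0.83). Of the 8 genes tested there (at least 100 UMIs in both libraries together), Psmb8 alone was past a log2 ratio of 0.5, the size used throughout as a limit, and 9.23% of 2567 genes were past it on the same side. Of its pair with Psmb5, it took 78.5% (72.3 to 83.8) and 81.3% (77.7 to 84.5) in cluster 9.

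Between libraries, 4 of the 9 genes were higher in Clec7a-/- cells as a whole by a log2 ratio of at least 0.5, and none was lower by as much. Of all 8470 genes tested, 14.3% were past this size in the Clec7a-/- direction and 7.31% in the other, and the median gene stood at 0.13. The genes past it were the immunoproteasome and transporter genes. Psmb9 was at 32.7 CPM in WT and 60.6 CPM in Clec7a-/-, a log2 ratio of 0.89 (0.69 to 1.09). Psmb8 was at 102 and 178 CPM (0.80, interval 0.69 to 0.91). Tap1 was at 30.5 and 52.7 CPM (0.79, interval 0.58 to 0.99), and its ratio was 0.45 when CPM were averaged over cells. Tap2 was at 46.6 and 77.3 CPM (0.73, interval 0.56 to 0.90).

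The other 5 genes differed less. Nlrc5 was at 39.3 CPM in WT and 48.3 CPM in Clec7a-/- (0.30, interval 0.10 to 0.50) and Tapbp at 191 and 232 CPM (0.28, interval 0.19 to 0.37). H2-K1 was at 1748 and 1938 CPM (0.15, interval 0.12 to 0.18), close to the median gene, and H2-D1 at 2744 and 2454 CPM (-0.16, interval -0.19 to -0.13). B2m was at 4040 and 4067 CPM (0.01, interval -0.01 to 0.03). TMM scaling, which sets the middle of the genes equal, lowered every ratio over all cells by 0.17 and turned that of H2-K1 to -0.02 and that of B2m to -0.16. The 9 genes together were at 8974 and 9108 CPM (0.02, interval 0.01 to 0.04), which TMM scaling turned to -0.15.

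The libraries held different shares of the classes in which these genes are high. DC-like cells were 13.6% of WT and 28.8% of Clec7a-/- cells, T-cell-like cells 2.49% and 6.05%, and neutrophil-like cells 18.1% and 3.95%. The class levels of the Clec7a-/- library were then weighted by each class's share of the UMIs, not of the cells, of the WT library. With these class shares held fixed, no gene was past 0.5. The ratio became 0.10 (approximate interval -0.03 to 0.22) for Psmb8, 0.08 (-0.14 to 0.30) for Psmb9, -0.10 (-0.35 to 0.15) for Tap1 and 0.16 (-0.04 to 0.37) for Tap2. For Nlrc5 it was -0.08 (-0.37 to 0.20) and for Tapbp 0.03 (-0.08 to 0.15). Intervals that include 0 do not show equal levels. H2-D1 was at -0.12 (-0.16 to -0.09) and was below 0 under every alternative run. B2m, at 0.01 over all cells, came to 0.11 (0.09 to 0.14) in this weighting, but to 0.036 with the shares of the Clec7a-/- library as weights, 0.061 under TMM scaling and 0.073 with no filter on cells. H2-K1 was at 0.05 (0.01 to 0.09) and turned to -0.01 under TMM scaling or with the shares of the Clec7a-/- library as weights. Cells were gated and pooled before capture, so shares of cells can also carry the sort.

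**Figure D4:**
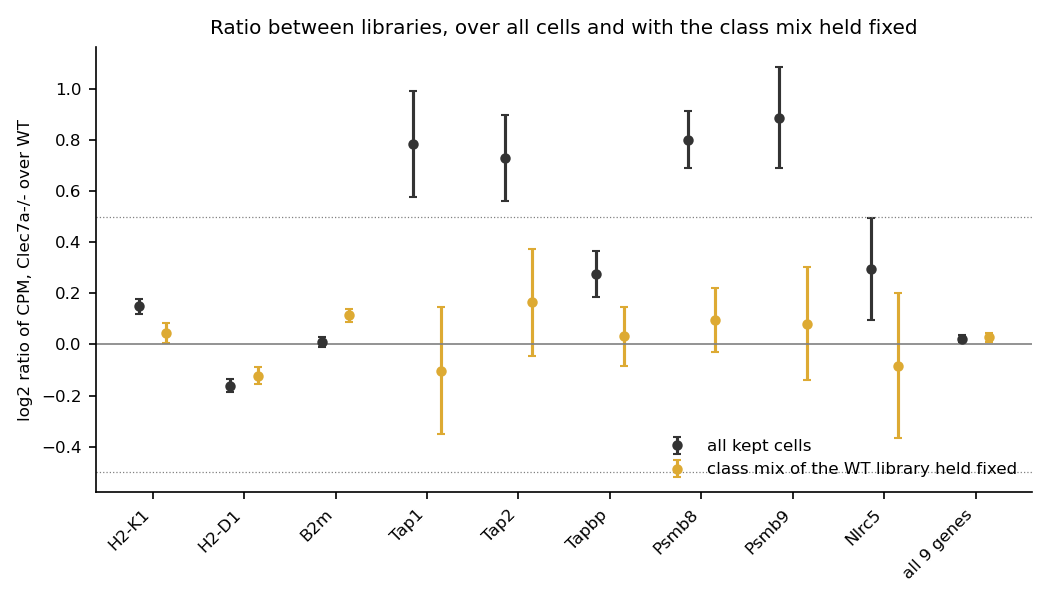
Log2 ratio of CPM, Clec7a-/- over WT, for each gene and the 9 together, over all cells (black) and with the WT class shares held fixed (yellow), with 95% counting intervals; dotted lines mark 0.5 in each direction. Psmb9, Psmb8, Tap1 and Tap2 lie between 0.73 and 0.89 over all cells and between -0.10 and 0.16 with the shares held fixed.

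Within single classes, 1 gene in 1 class was past a log2 ratio of 0.5. This was B2m in cluster 3, at 3558 CPM (3325 to 3802) in WT and 5269 CPM (5025 to 5522) in Clec7a-/- (0.57, interval 0.45 to 0.69), 1 of the 4 genes with enough UMIs there. In that cluster 25.2% of 961 genes were past the size in the same direction, and 51.7% in either, so 1 of 4 is at the background. Cluster 3 also had 13788 CPM of neutrophil marker RNA in WT and 23562 CPM in Clec7a-/- (10 of 10 markers in each), and its cells are the shallowest. The part of either in the result was not tested. TMM scaling within the cluster moved the ratio of B2m to 1.09. With integration by reciprocal PCA it was -0.34, and those of H2-K1 and H2-D1 turned to -0.48 and -0.60.

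None of the tested genes was past 0.5 in the other classes: 0 of 9 in DC-like cells (9.99% of 4916 genes past it in either direction), 0 of 7 in macrophage-like cells (8.02% of 5789), 0 of 7 in monocyte-like cells (9.40% of 4363), 0 of 4 in neutrophil-like cells (28.9% of 1715), 0 of 4 in cluster 5 (20.6% of 2433) and 0 of 3 in T-cell-like cells (13.4% of 733). The genes without 100 UMIs were the immunoproteasome and transporter genes and Nlrc5 in neutrophil-like cells, cluster 3 and cluster 5, and the same genes with Tapbp in T-cell-like cells. In monocyte-like cells they were Tap1 and Psmb9, and in macrophage-like cells Tap1 and Nlrc5. Tap2 in macrophage-like cells came nearest, at 30.5 and 42.7 CPM (0.49, interval 0.08 to 0.89). Within them, it was past 0.5 in cluster 4 (30.6 and 44.5 CPM, 0.54, interval 0.01 to 1.05), 1 of 7 tested there with 3.23% of 4669 genes past it on the same side.

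**Figure D5:**
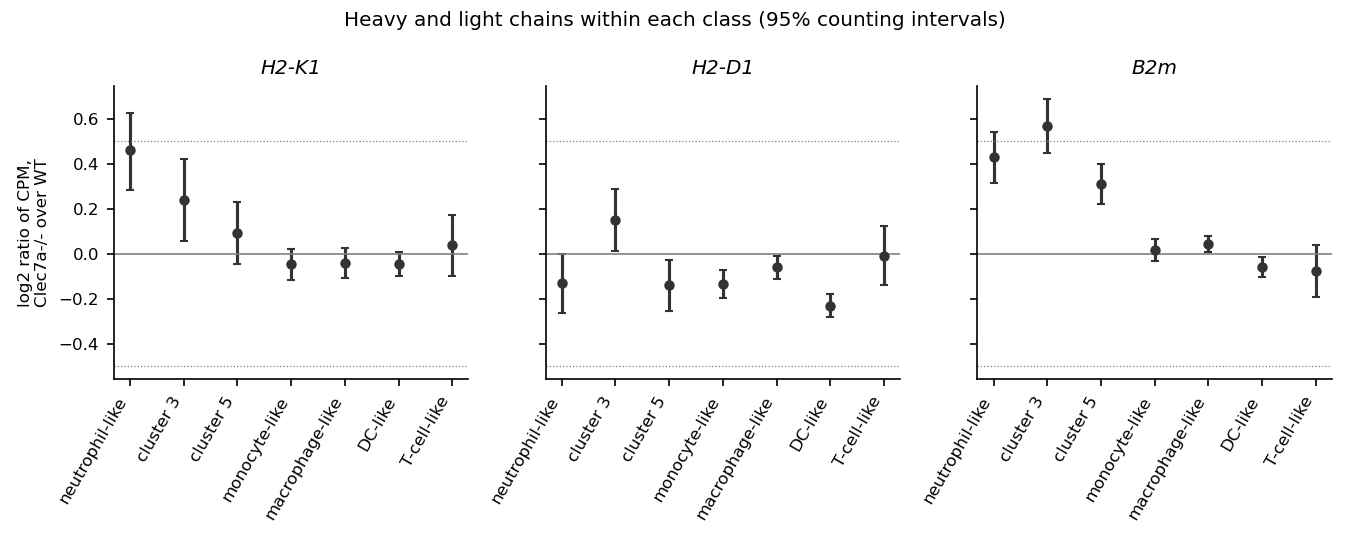
Log2 ratio of CPM, Clec7a-/- over WT, of H2-K1, H2-D1 and B2m within each class, with exact conditional 95% intervals; dotted lines mark 0.5. B2m lies above 0 in neutrophil-like cells, cluster 3 and cluster 5 (0.43, 0.57 and 0.31) and below it in DC-like cells (-0.06), and H2-D1 is lowest in DC-like cells (-0.23).

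The chains did not differ alike. B2m was higher in Clec7a-/- neutrophil-like cells, at 3627 CPM in WT and 4875 CPM in Clec7a-/- (0.43, interval 0.31 to 0.54), and in cluster 5, at 4077 and 5054 CPM (0.31, interval 0.22 to 0.40). In monocyte-like, macrophage-like and T-cell-like cells its ratio was 0.02, 0.04 and -0.08. In DC-like cells it was at 3630 and 3483 CPM (-0.06, interval -0.10 to -0.02), which turned to 0.01 when CPM were averaged over cells. H2-K1 was also higher in Clec7a-/- neutrophil-like cells, at 1560 and 2142 CPM (0.46, interval 0.28 to 0.63), whereas H2-D1 was at 3798 and 3465 CPM (-0.13, interval -0.27 to -0.002). These neutrophil-like values rest on 489 cells in WT (median 2805 UMIs) and 79 in Clec7a-/- (median 1804 UMIs). TMM scaling within the class lowered its ratios by 0.25, to 0.18 for B2m and 0.21 for H2-K1, and with no filter on cells that of H2-K1 was 0.26.

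H2-D1 was lower in Clec7a-/- DC-like cells, at 2865 CPM (2789 to 2943) in WT and 2440 CPM (2383 to 2498) in Clec7a-/- (-0.23, interval -0.28 to -0.18). The same was found in all 3 DC-like clusters, with ratios of -0.23 in cluster 7, -0.23 in cluster 8 and -0.20 in cluster 9. When CPM were averaged over cells, the ratio over DC-like cells was -0.12. Neutrophil marker RNA, from 10 of 10 markers in each library, was at 957 CPM in WT and 252 CPM in Clec7a-/- DC-like cells, and neutrophil-like cells are rich in H2-D1. Its part in this difference was not tested. H2-K1 was at 2355 and 2281 CPM in DC-like cells (-0.05, interval -0.10 to 0.01). The lower H2-D1 was not particular to DC-like cells. Its ratio was -0.14 (-0.20 to -0.07) in monocyte-like cells and -0.14 (-0.26 to -0.03) in cluster 5. It was -0.06 (-0.11 to -0.01) in macrophage-like cells and -0.01 (-0.14 to 0.12) in T-cell-like cells. In cluster 3 it was above 0, at 0.15 (0.01 to 0.29).

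The split between the heavy chains does not depend on scaling. H2-D1 took 61.1% (60.7 to 61.5) of the UMIs of both heavy chains in WT and 55.9% (55.3 to 56.4) in Clec7a-/- over all cells. In neutrophil-like cells it took 70.9% (69.9 to 71.9) and 61.8% (58.4 to 65.1), in DC-like cells 54.9% (53.9 to 55.9) and 51.7% (50.8 to 52.5), and in macrophage-like cells 62.0% and 61.6%, with overlapping intervals. T-cell-like cells were at 52.0% and 51.2%. The share was thus higher in WT where the intervals were apart. H2-K1, H2-D1 and other class I genes are near-identical in parts of their transcripts, and how the counting divided shared reads is not given in the sources used here, so the split is uncertain.

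The monocyte-like class hid opposite differences. In cluster 2, led by Ly6c2, B2m was at 3948 CPM in WT and 4603 CPM in Clec7a-/- (0.22, interval 0.15 to 0.29). In cluster 1, whose top genes included 8 fixed markers of monocytes becoming macrophages (such as Arg1 and Ccl24), it was at 3636 and 3267 CPM (-0.15, interval -0.22 to -0.09), and H2-D1 was at 2582 and 2079 CPM (-0.31, interval -0.39 to -0.23). Neither cluster had a tested gene past 0.5, with 11.2% of 3254 genes past it in either direction in cluster 1 and 11.8% of 2333 in cluster 2. The difference between clusters was not tested.

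Other genes of the pathway were read from lists made by role. Of all genes tested over all cells, 14.3% were past 0.5 and higher in Clec7a-/-. Each list count is read beside this share, and 2 of 9 and 1 of 8 are near it. Over all cells, of the 9 tested genes of the list of non-classical and other class I molecules, 2 were past 0.5 and higher in Clec7a-/-, H2-Q7 (116 and 189 CPM, 0.70) and H2-Q6 (96.0 and 169 CPM, 0.82), near-identical class I genes of the Qa region whose shared reads could be split either way. H2-T23, which encodes Qa-1, was at 122 and 142 CPM (0.22). Of the 8 genes of the proteasome list, 3 were past it, the proteasome activator subunits Psme1 (236 and 378 CPM, 0.68) and Psme2 (142 and 214 CPM, 0.59) and the assembly factor Pomp (300.4 and 426 CPM, 0.50). TMM scaling would take Psme2 and Pomp under the limit. In DC-like cells alone none of these was: H2-Q7 was at 0.07, H2-Q6 at -0.14, Psme1 at 0.10, Psme2 at -0.03 and Pomp at 0.27. Within cluster 5, however, H2-Q6 and H2-Q10 (2 of 4 tested of their list) were past 0.5 and higher in Clec7a-/-. So were Psme2 and Pomp there (2 of 7 tested), beside 20.6% of all genes past it in either direction.

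Of the 8 loading and trimming genes, 1 was past 0.5 over all cells (Tapbpl, a relative of tapasin), beside 14.3% of all genes tested. Over all cells the endoplasmic reticulum chaperones with the most UMIs were close to 0, with Hspa5 at -0.11, Calr at -0.04, Pdia3 at 0.11 and Canx at 0.12. In cluster 3, however, Calr and Canx were past 0.5 and lower in Clec7a-/-. They were 2 of 3 tested of this list, beside 51.7% of all genes there past it in either direction. Among the regulators, Irf8, a transcription factor of DCs, was past 0.5 over all cells (120 and 213 CPM, 0.83). Tapbpl is named after its value was seen. Irf1, a regulator of class I genes, was at 103 and 111 CPM (0.11). Of the 5 cross-presentation genes, 2 were past 0.5, beside 14.3% of all genes tested. They were Wdfy4, required in type 1 DCs for this task (37.6 and 74.6 CPM, 0.99), and Rab43 (54.9 and 87.6 CPM, 0.67). In DC-like cells Ciita, the regulator of class II genes, was at 17.6 and 26.8 CPM (0.59). Clec9a, 1 of the 5 cross-presentation genes, was lower in Clec7a-/- DC-like cells, at 51.7 and 20.9 CPM (-1.30). Both are named after their values were seen. No other gene of the 5 was past 0.5 in DC-like cells, and their median was 0.26. The cause of the Clec9a difference was not tested. The ratios of Irf8 and Wdfy4 in DC-like cells were 0.19 and 0.31. None of the 6 loading or 8 proteasome genes tested there was past 0.5, beside 9.99% of all genes in either direction. The list medians over all cells were 0.03 for other class I molecules, 0.10 for loading, 0.33 for the proteasome and 0.24 for cross-presentation, beside 0.13 for all genes tested. For other class I molecules the median differed between classes. It was -0.40 in monocyte-like, -0.22 in macrophage-like and -0.26 in T-cell-like cells. It was 0.01 in DC-like cells, 0.17 in neutrophil-like cells, 0.58 in cluster 5 and 1.05 in cluster 3 (1 gene).

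Over all cells, interferon-stimulated genes had the opposite balance. Of the 10 tested, 6 were lower in Clec7a-/- by at least 0.5, beside 7.31% of all genes tested. Another 1 was higher, beside 14.3%, and the median was -0.55. Rsad2, the antiviral protein viperin, was at 38.0 and 18.0 CPM (-1.08), Oasl2 at 50.8 and 29.2 CPM (-0.79) and Gbp2, a guanylate-binding protein, at 74.7 and 49.6 CPM (-0.59). The classes did not all share this balance. The list median was -0.95 in monocyte-like cells, -0.14 in cluster 5 and -0.11 in macrophage-like cells. It was 0.04 in cluster 3, from 1 gene, and 0.51 in neutrophil-like cells. In DC-like cells it was 0.29, with 1 of 4 genes higher and 0 lower. The part of the class shares in the balance over all cells was not tested. In monocyte-like cells 4 of 5 tested were lower (beside 5.00% of all genes tested there), with Rsad2 at 68.1 and 18.0 CPM (-1.90). There, none of the 7 tested of the 9 genes was past 0.5. The list of other class I molecules also had none past it, but its median was -0.40. In neutrophil-like cells Rsad2 was at 78.9 and 188 CPM (1.27) and Isg15 at 95.6 and 188 CPM (1.00), 2 of the 4 tested and beside 14.5% of all genes there. In DC-like and macrophage-like cells the chemokine Cxcl10 was higher in Clec7a-/-, at 8.54 and 32.0 CPM (1.87) and at 16.9 and 56.1 CPM (1.73). Of the 7 tested in macrophage-like cells, 2 were higher (Cxcl10 and Gbp7) and 2 lower, Rsad2 at 28.4 and 14.9 CPM (-0.91) and the chemokine Cxcl9 at 25.8 and 11.9 CPM (-1.09), with a median of -0.11. Gbp7 and Cxcl9 are named after their values were seen.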

How the data were processed

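Single-cell RNA-seq of polyp myeloid cells was analysed, with 1 library per genotype, grouped by the sample titles. Counts of UMIs per gene and barcode were deposited by the authors without normalization. The submitters' processing notes name Cell Ranger 2.1.1 and mm10. The kit is SeekOne MM by the study's methods and 10x by the labels, and aligner settings and annotation are not given in the sources used here. The study's limits on cells were applied (200 to 4000 genes detected, mitochondrial share up to 5%). Doublets were not removed, and no removal is stated in the methods. Scrublet (scanpy 1.11.5) called 0 cells in either library and so did not work here. Clustering used Seurat 5.3.0 under R 4.3.3 with 20 principal components, and TMM factors came from edgeR 4.0.16. Levels are summed UMIs per 1000000, with exact Poisson, binomial (Clopper-Pearson) or conditional 95% intervals. Those with the class shares held fixed use a normal approximation on the log scale. Ratios used a pseudocount of 0.5 UMI and genes with at least 100 UMIs in both libraries together, and the procedure was tested on simulated data. Named genes are the 9 genes, the 4 genes with the most UMIs of each list, those past the limit in at least 2 classes, the 3 genes most similar to each of the 9, and class markers. The genes, lists and markers were chosen with earlier results of these data known. The mix held fixed over 15 clusters and the Clec7a-/- shares as weights were chosen after seeing the data. The count and median of the list of regulators are not reported here.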

Additional observations from a re-analysis of the deposited data

Results flagged for a closer look

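The difference between libraries went opposite ways in different classes for 2 of the 9 genes, by counting intervals on opposite sides of 0. Only values from at least 100 UMIs in both libraries together were considered. For B2m, the log2 ratio of Clec7a-/- over WT was 0.57 in cluster 3 and -0.06 in DC-like cells, 0.63 apart. For H2-D1, it was 0.15 in cluster 3 and -0.23 in DC-like cells, 0.38 apart. These differences were not tested, since each genotype is 1 library, and both ratios in cluster 3 turned below 0 with integration by reciprocal PCA. Nlrc5 also had intervals on opposite sides of 0, but from too few UMIs to be considered. It was at 1.14 (0.07 to 2.46) in cluster 3 and -0.83 (-1.79 to -0.03) in macrophage-like cells, from 37 and 73 UMIs.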

How the results depend on the processing

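Each genotype is 1 library, so nothing here measures the spread between mice, and leaving out a replicate was not possible. No paired analysis was possible because each group holds 1 sample. Genes with few UMIs (Tap1, Psmb9 and Nlrc5 outside DC-like cells) limit the ratios within classes. Of 191 values recomputed for the main comparisons, 140 stayed within the counting interval or within 1.5 times the count. Another 48 moved outside it and 3 turned to the opposite sign. Of 533 for single genes, 488 stayed within it, 38 moved outside it and 7 turned to the opposite sign. The cause of these changes was not tested.

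For the 9 genes together, the log2 ratio over all cells (0.02) was 0.0057 with a limit of 10% mitochondrial UMIs, -0.15 with TMM scaling and 0.12 as a mean over cells. With the class shares held fixed (0.03) it was 0.0034 with that limit, 0.0074 with no filter on cells, -0.026 with TMM scaling and -0.020 with the Clec7a-/- shares as weights. For H2-K1 it turned to -0.018 over all cells with TMM scaling, and with shares held fixed to -0.012 with TMM scaling and -0.015 with the Clec7a-/- shares. With reciprocal PCA, H2-K1, H2-D1 and B2m in cluster 3 were at -0.48, -0.60 and -0.34, and B2m in DC-like cells was at 0.0051 as a mean over cells.

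With a log2 ratio of 1 as the limit, the number of the 9 genes past it was 0 over all cells (4 at 0.5) and 0 in cluster 3 (1 at 0.5). In neutrophil-like cells (0) it was 2 with reciprocal PCA, 2 with a minimum of 20 UMIs and 2 with no minimum. In cluster 3 (1) it was 3 with TMM scaling, 3 with a minimum of 20 UMIs and 4 with none. In cluster 5 (0) it was 1, 1 and 2 under the same settings. In macrophage-like cells (0) it was 1 with no filter on cells, 1 with 30 principal components, 1 with all variable features, 1 with reciprocal PCA, 1 with a pseudocount of 5 UMIs, 2 with a minimum of 20 UMIs and 2 with none.

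The share of cells with a UMI, at 2000 UMIs per cell and without thinning, was 93.5% and 93.2% for H2-K1, 97.9% and 97.1% for H2-D1, 99.2% and 98.2% for B2m, 6.34% and 10.4% for Tap1, 9.42% and 16.8% for Tap2, 30.4% and 44.7% for Tapbp, 17.3% and 27.2% for Psmb8, 6.66% and 12.2% for Psmb9, and 8.55% and 13.2% for Nlrc5. The immunoproteasome share over all cells was 35.4% in WT and 46.0% in Clec7a-/- with 10% mitochondrial UMIs, and 35.5% and 46.8% with no filter. It was 59.7% and 60.8% in Clec7a-/- DC-like cells under these 2 settings, and 20.7% with 30 principal components and 20.4% with reciprocal PCA in WT monocyte-like cells.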

Other observations

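H2-Q10, a class I gene known as a secreted product of the liver, was among the 10 leading genes of cluster 3, and its counts could include reads shared with other class I genes. It was at 221 CPM (166 to 288) in WT and 461 CPM (391 to 540) in Clec7a-/- cells of cluster 3, a log2 ratio of 1.05 (0.60 to 1.54). In neutrophil-like cells it was at 241 and 416 CPM (0.80, interval 0.38 to 1.18) and in cluster 5 at 101 and 218 CPM (1.12, interval 0.65 to 1.56). DC-like cells were at 6.94 and 8.01 CPM and macrophage-like cells at 6.33 and 3.97 CPM, from 8 to 27 UMIs in each library. Over all cells the ratio was -0.17 (-0.36 to 0.02), opposite in sign to that in the 3 classes where its level was highest. Of all genes tested, 25.2% in cluster 3 and 14.5% in neutrophil-like cells were past 0.5 in the same direction. In cluster 5, 20.6% were past it in either direction. The ratios of H2-Q10 were not recomputed with reciprocal PCA. H2-Q4, another gene of the Qa region, was lower in Clec7a-/- DC-like cells (70.4 and 47.3 CPM, -0.57, interval -0.93 to -0.22) and macrophage-like cells (23.7 and 12.4 CPM, -0.91, interval -1.63 to -0.29). Of all genes tested, 9.99% and 8.02% were past 0.5 in either direction in these classes. In DC-like cells, 1 of the 5 tested genes of its list, Cd1d1, was past 0.5 and higher in Clec7a-/-.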
